A study of Mus musculus with 4 samples.

Results

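The potassium channel family was followed as all genes whose symbol starts with Kcn, a letter and a digit, antisense names left out. The scanner files give accessions in place of symbols, and through these 73 of the 18350 genes named on the array were members, with 98 probes. Of the 73, 59 passed the filter on dim probes, which asked for a signal clearly over background on both arrays of either group, and were tested, 57 of them with a signal well above background on all 4 arrays. The members were chosen by name, with no measured value. Of the 14 that did not pass, 9 were well above background on no array.

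The tissue was thalamus together with hypothalamus, taken from mice at postnatal day 14 for total RNA. Dark-reared mice (2 samples) were born to dams moved 1 to 4 days before delivery into a cage wrapped in thick black plastic, were tended under dim red light and were kept in that cage up to tissue collection. Control mice (2 samples) lived in standard plastic cages with 12 h of light and 12 h of dark. Each Cy3-labelled sample filled 1 Agilent array, read in a single colour. The labels call the samples biological replicates and give no strain, sex or number of animals behind a sample, and the p-values measure only the spread between these samples. The comparison asks whether these channels are expressed at other levels in mice raised in the dark. Signals are given in log2, less the 75th percentile of their own array, so 0 is the level of that percentile, and values of different probes are not compared with each other. A difference is the dark-reared mean minus the control mean on that scale, with n = 2 per group throughout.

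Potassium channels let potassium ions leave or enter cells along their gradient and so set the resting potential, the width of the action potential and the rate at which a neuron can fire. Voltage-gated members open on depolarisation, inward rectifiers hold the resting potential and take up potassium in glia, tandem-pore-domain members carry leak current, and calcium- or sodium-activated members shape the potential after spikes. In the thalamus such currents help to switch neurons between burst and tonic firing.

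The arrays differed in the regional markers they carried. Between 65.9% and 73.3% of the 41174 probes were well above background on an array, and no spot was saturated. All 11 tested thalamus markers had the lower mean in dark-reared samples. Their average deviation from the 4-array mean was -1.09 and 0.27 for the dark-reared pair and 1.20 and -0.38 for the control pair, replicate 1 before replicate 2. The 8 tested hypothalamus markers deviated by -2.15, 0.60, 1.73 and -0.18 in the same order, and Sim1, Otp, Agrp, Pmch and Six6 did not pass the filter. The 9 striatum markers ran the other way, at 0.84 and -0.80 for the dark-reared pair and -0.66 and 0.62 for the control pair. Their summed signal was 360 and 117 times the percentile in dark-reared samples versus 137 and 326 times in control samples. The 12 cortex and hippocampus markers deviated by 0.29, 0.13, 0.25 and -0.67 on the same arrays. The 9 oligodendrocyte markers deviated by 0.63, -1.19, 0.68 and -0.12, all 9 with the lower mean in dark-reared samples. The 8 choroid plexus markers stood at 0.63, 0.34 and 0.81 on the first 3 arrays and at -1.79 in control 2. The list averages for astrocytes, fast-spiking interneurons, endothelium and pericytes, microglia, ependyma, pituitary and red blood cells deviated by -0.65 to 0.42 on any array. The 3 tested Y-linked genes deviated by 0.31 and 2.08 for the dark-reared pair and by -4.51 and 2.12 for the control pair. Ddx3y, 1 of them, had -6.54 in control 1 and 1.18 in control 2. The arrays thus differed in Y-linked signal, control 1 most, and the labels give no sex. The part of sex in differences that depend on control 1 was not tested. Single markers could differ more than their list. Pvalb, of the fast-spiking list, had -2.09 and -3.37 in dark-reared samples versus 0.47 and -1.19 in control samples. That is a difference of -2.37 without overlap, in a list with 3 markers higher and 3 lower. In bulk tissue, fewer cells of a type and less RNA per cell cannot be told apart.

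Dark rearing was not accompanied by a called change in any potassium channel gene. With limma across 21432 genes, 0 of 59 members had an adjusted p under 0.05, where 0% of all genes did (lowest adjusted p 0.303). An unadjusted p under 0.05 was reached by 0 members, against 1.25% of all genes, and the lowest member p was 0.0912, for Kcnc1. Of the 59 members, 22 were higher and 37 lower in dark-reared samples, where 48.1% of all genes were higher. The members' median log2 difference was -0.09, against -0.01 over all genes tested, and the range was -0.81 (Kcnc2) to 1.59 (Kcne2). Kcne2 alone differed by at least 2-fold, against 2.37% of all genes, and its groups overlapped. No member was at least 2-fold apart without overlap, against 1.2% of all genes. On the 1 slide that held both a dark-reared and a control sample (dark-reared 2 and control 2), 27 of 59 members were higher in dark-reared and the median difference was -0.06.

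**Figure D1:**
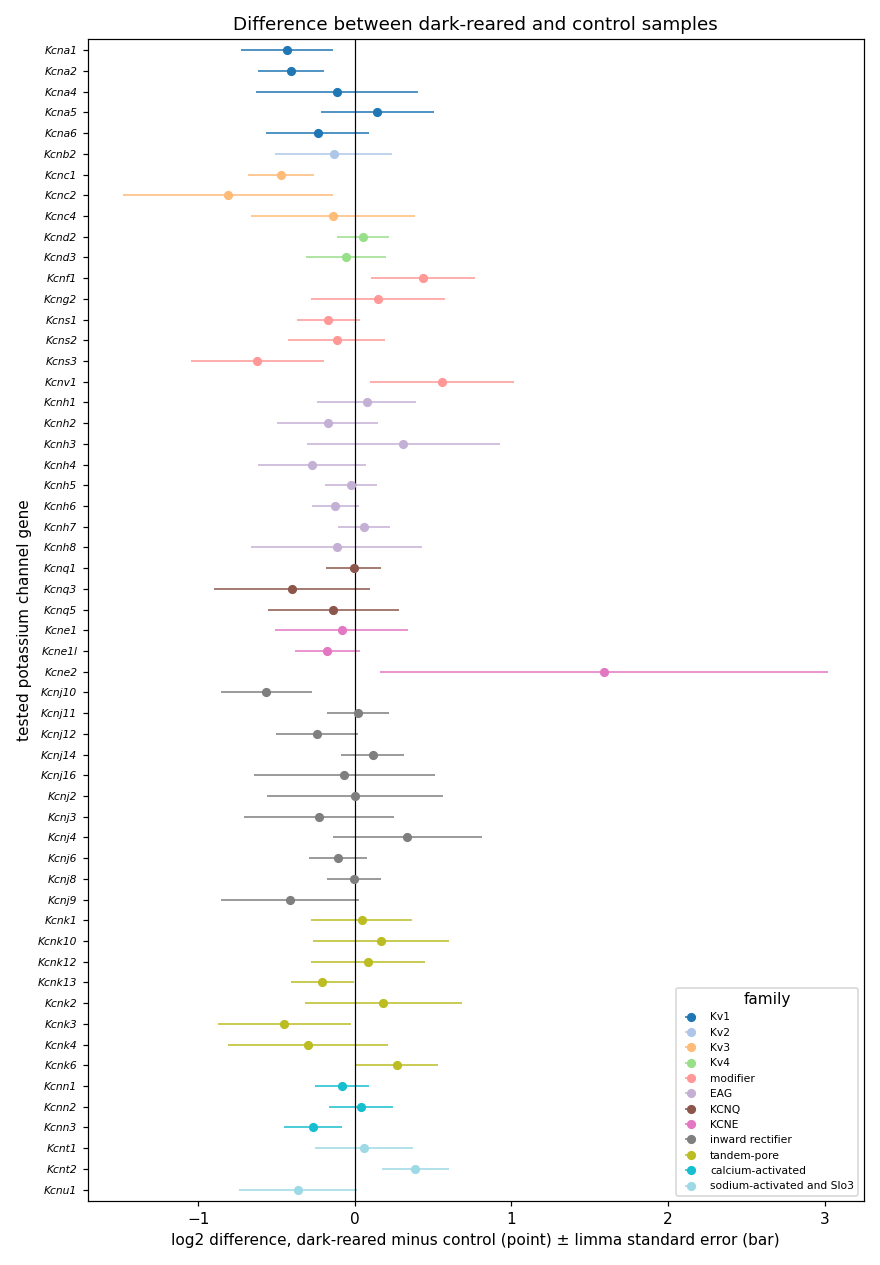
Each row is 1 of 56 tested potassium channel genes, grouped and coloured by family. The point is the log2 difference, dark-reared minus control (n = 2 each), and the bar its limma standard error. Kcne2, at 1.59 with a standard error of 1.43, stands furthest from 0, and Kcnc2, at -0.81, is the lowest.

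In 7 members the groups did not overlap, 6 with lower and 1 with higher signal in dark-reared samples. That is 11.9% of the members, where 19.1% of all genes did not overlap (9.59% lower and 9.5% higher). The 6 lower genes were Kcna2, Kcnc1, Kcnh6, Kcnj10, Kcnn3 and Kcns3, and the higher one was Kcnt2. Upstream sequences of 4 of these are shown because their dark-reared and control samples did not overlap, 1 each for an axonal Kv1 channel, a Kv3 channel, a glial rectifier and a sodium-activated channel. They are the 250 bases before the transcript start, from RefSeq on build GRCm38.p6, 5′ to 3′, with the GC box GGGCGG (either strand, the motif bound by Sp1) in capitals. Windows were matched by gene symbol, and the NM number beside each is that of the gene's array probe.
Kcna2 (NM_008417, chr3:107101317-107101566, + strand): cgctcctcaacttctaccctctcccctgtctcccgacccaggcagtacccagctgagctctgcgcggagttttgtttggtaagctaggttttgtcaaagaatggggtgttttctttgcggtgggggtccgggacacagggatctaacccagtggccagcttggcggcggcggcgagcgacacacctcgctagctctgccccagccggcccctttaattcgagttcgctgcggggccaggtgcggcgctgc
Kcnc1 (NM_008421, chr7:46396218-46396467, + strand): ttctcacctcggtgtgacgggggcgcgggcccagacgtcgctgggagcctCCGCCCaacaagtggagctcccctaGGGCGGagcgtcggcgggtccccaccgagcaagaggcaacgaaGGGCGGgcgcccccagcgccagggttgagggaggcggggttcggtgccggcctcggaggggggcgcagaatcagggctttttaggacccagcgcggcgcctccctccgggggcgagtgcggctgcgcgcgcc
Kcnj10 (NM_001039484, chr1:172340960-172341209, + strand): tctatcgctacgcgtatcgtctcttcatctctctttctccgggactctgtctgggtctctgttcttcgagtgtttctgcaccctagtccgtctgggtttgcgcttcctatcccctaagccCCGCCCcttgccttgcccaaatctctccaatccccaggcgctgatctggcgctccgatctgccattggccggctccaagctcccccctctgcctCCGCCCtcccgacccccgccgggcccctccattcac
Kcnt2 (NM_001081027, chr1:140245468-140245717, + strand): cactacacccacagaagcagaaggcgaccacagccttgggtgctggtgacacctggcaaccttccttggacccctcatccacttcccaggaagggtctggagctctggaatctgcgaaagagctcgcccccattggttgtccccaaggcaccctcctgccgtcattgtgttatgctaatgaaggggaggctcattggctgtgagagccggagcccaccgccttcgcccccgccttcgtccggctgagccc
The Kcnc1 window held 3 GC boxes and the Kcnj10 window 2. Those of Kcna2 and Kcnt2 held none of these letters, and 32.7% of all 32851 windows of this length in the table held the motif. Only 51 of the 73 members had a window, some of them more than 1. Of these 67 member windows, 34 (50.7%) held it. The core TGACG of the cyclic AMP response element (either strand) was found once in the Kcnc1 window and once in the Kcnt2 window. The windows of Kcnh6, Kcnn3 and Kcns3, not printed here, held none. It was in 12 of 67 member windows (17.9%), against 17.8% of all windows. The 4 windows were 61.6% to 74.4% G and C. The palindromic E-box CACGTG was in 4 of 67 member windows (5.97%), against 6.02% of all windows.

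Kv1 genes encode low-threshold channels of axons and nerve terminals. Kcna2, which lies beside the nodes of Ranvier with Kcna1, had log2 signals of -0.37 and -0.67 in dark-reared samples versus 0.05 and -0.27 in control samples. Both dark-reared samples lay below both controls, by a log2 difference of -0.41 (standard error 0.21, limma adjusted p = 1.00), and on the shared slide it was -0.40. Kcna1 had 4.04 and 3.43 in dark-reared samples versus 4.37 and 3.97 in control samples, and dark-reared 1 lay just above control 2. Its difference was -0.43 (standard error 0.29). From low to high, the array order of Kcna1 (dark-reared 2, control 2, dark-reared 1, control 1) was that of the oligodendrocyte marker means, whose part in the result was not tested. Of the 5 tested Kv1 genes 4 were lower in dark-reared samples and 1 higher, with a median of -0.24, and the remaining member, Kcna3, did not pass the filter.

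Kv3 genes encode channels that open at high voltage and close fast, which lets neurons fire at high rates. All 4 were tested, and all 4 had a lower mean in dark-reared samples, with a median of -0.32 and no call. Kcnc1 had log2 signals of 0.59 and 0.77 in dark-reared samples versus 1.36 and 0.94 in control samples. The groups did not overlap on this probe, at a difference of -0.47 (standard error 0.21, limma adjusted p = 1.00). Its 2 other probes were also lower, by -0.14 and -0.62, and on the second of these dark-reared 2 (0.11) lay just above control 2 (0.09). Kcnc2 had -0.64 and 0.46 in dark-reared samples versus 1.46 and -0.02 in control samples. The spread within each group was wide, with SDs of 0.77 and 1.05, and the difference of -0.81 (standard error 0.67) turned to 0.48 within the shared slide. All 3 Kcnc2 probes had the same sign. Kcnc4 differed by -0.14 and had its highest value, 1.17, in dark-reared 2. Within the shared slide the median of the 4 genes was 0.29. Control 1, the highest array for Kcnc1 and Kcnc2, was also the highest for the thalamus markers. It was the highest for hypothalamus, oligodendrocyte, choroid plexus and astrocyte markers as well. The part of these markers in the result was not tested.

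Kv2 and Kv4 genes encode the delayed rectifier of the soma and the transient A-type current of dendrites. Kcnd2 was among the most even members, at 3.42 and 3.31 in dark-reared samples and 3.19 and 3.42 in control samples, a difference of 0.05 (standard error 0.17). Kcnd3 had -2.84 and -2.32 in dark-reared samples versus -2.68 and -2.36 in control samples, a difference of -0.06. Kcnb2 differed by -0.14, and Kcnd1 did not pass the filter.

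Modifier subunits form no channel alone and alter Kv2 channels when they join them. Kcns3, one of these, had -2.14 and -2.14 in dark-reared samples versus -0.95 and -2.08 in control samples. Both dark-reared samples lay just below control 2 as well, but the size of the difference rested on control 1. The difference of -0.62 (standard error 0.42, limma adjusted p = 1.00) was -0.06 without that array and -0.06 within the shared slide. Of 6 tested modifier genes 3 were higher and 3 lower, from -0.62 to 0.56 (Kcnv1). Kcng3, Kcng4 and Kcnv2 did not pass the filter.

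The ether-a-go-go (EAG) family, Kcnh1 to Kcnh8, was tested in full, with 3 members higher, 5 lower and a median of -0.07. Kcnh3, a channel of forebrain neurons, had the largest difference of the 8. Its log2 signals were -0.41 and -1.59 in dark-reared samples versus -1.92 and -0.70 in control samples. Each group held 1 high and 1 low sample, and the difference of 0.31 (standard error 0.62) was -0.89 within the shared slide. Kcnh6 did not overlap at a difference of -0.12, with -3.49 and -3.50 in dark-reared samples and -3.45 and -3.30 in control samples.

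Several KCNQ genes, though not Kcnq1, encode the slow M current that limits repetitive firing. On their brightest probes the 4 tested members differed by -0.40 to -0.01, without a call, while the second probe of Kcnq5 differed by 0.51. Kcnq3, a subunit of the M channel, had log2 signals of -3.57 and -4.88 in dark-reared samples versus -3.97 and -3.67 in control samples. Its difference of -0.40 (standard error 0.50) came from dark-reared 2, where the signal was not well above background, and was 0.26 without that array.

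KCNE subunits attach to voltage-gated channels and change how they open. Kcne2 (NM_134110), found at the apical membrane of choroid plexus epithelium, had log2 signals of 1.23 and 0.25 in dark-reared samples versus 1.09 and -2.79 in control samples. Control 2 was far below the other 3 arrays, which lay within about 1 log2 unit. The difference was 1.59 (standard error 1.43, limma adjusted p = 1.00), and it was -0.35 without control 2 and 3.53 without control 1. Choroid plexus markers were low on the same array, with a summed signal of 19.9 and 12.8 times the percentile in dark-reared samples versus 18.8 and 3.25 times in control samples. Control 2 was the lowest array for 7 of these 8 markers. Prlr was lowest in dark-reared 1, at -3.11, against -1.67 in control 2. The part of the markers in the result was not tested, and all 8 of that list were measured. The channel gene Kcnj13, also known from choroid plexus, had no named probe, and neither had the leak channel gene Kcnk9. Kcne1 and Kcne1l differed by -0.09 and -0.18, and Kcne3 and Kcne4 did not pass the filter. Kcne1l lies on the X chromosome. The 3 tested Y-linked genes deviated by 0.31 and 2.08 in dark-reared samples and by -4.51 and 2.12 in control samples, while Kcne1l had 1.79 and 1.35 in dark-reared samples and 1.74 and 1.75 in control samples.

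**Figure D2:**
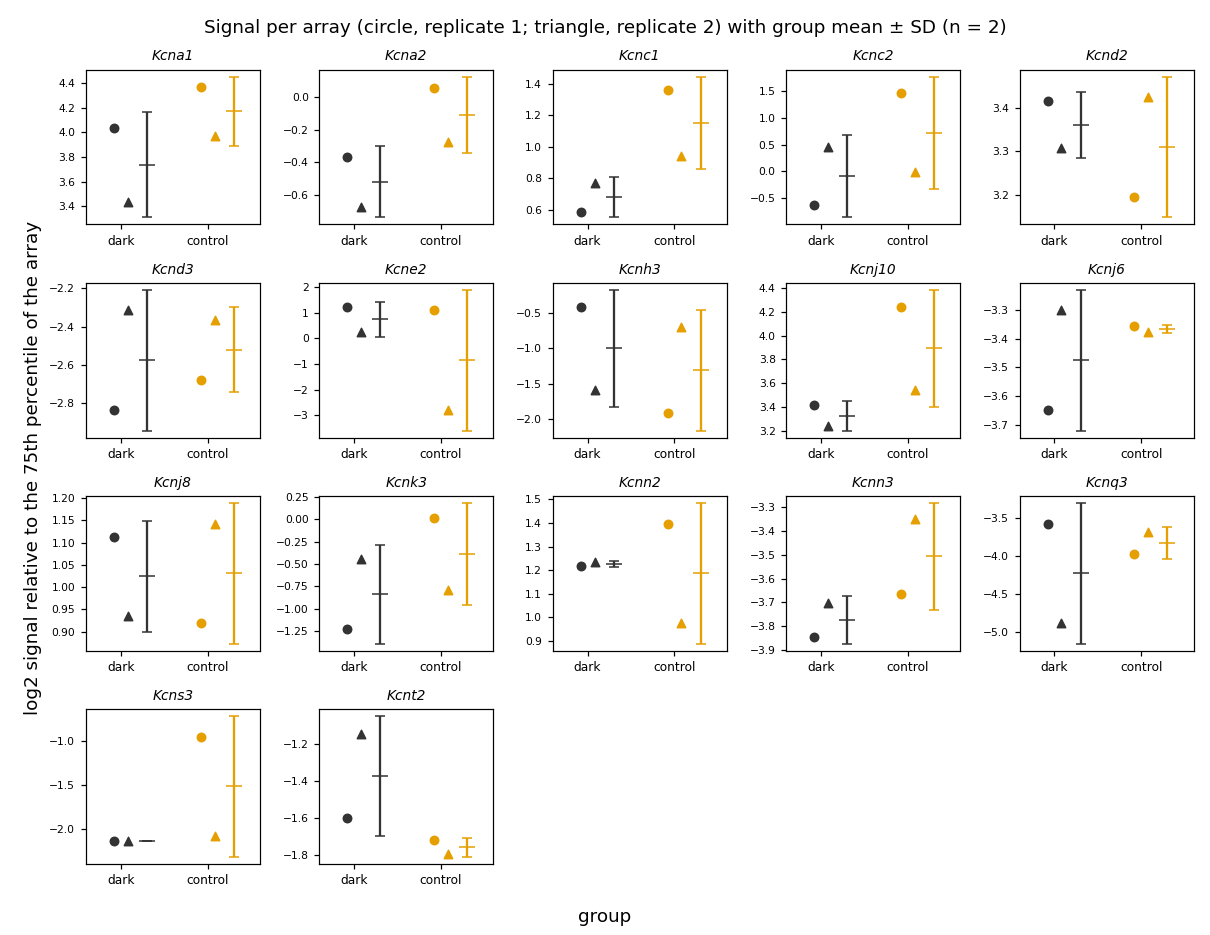
Each panel gives 1 of 17 named genes, with log2 signal relative to the array's 75th percentile on the vertical axis, dark-reared samples on the left and control samples on the right. Circles are replicate 1, triangles replicate 2, and the bar is the group mean ± SD (n = 2). Vertical scales differ between panels. Kcne2 spans 1.23 to -2.79, and Kcna2, Kcnc1, Kcnj10, Kcnn3, Kcns3 and Kcnt2 are the panels whose groups do not overlap.

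Inward rectifiers carry current near the resting potential. Kcnj10, the main rectifier of astrocytes and oligodendrocytes, which clears potassium from around active neurons, had 3.42 and 3.24 in dark-reared samples versus 4.24 and 3.55 in control samples. Both dark-reared samples were below both controls, by a difference of -0.57 (standard error 0.29, limma adjusted p = 1.00), which was -0.31 within the shared slide and -0.22 without control 1. Astrocyte markers deviated by -0.05 and 0.04 for the dark-reared pair and 0.15 and -0.13 for the control pair, and oligodendrocyte markers by the larger amounts given above. Their part in the result was not tested. Kcnj6, a G protein-gated rectifier, had -3.65 and -3.30 in dark-reared samples versus -3.36 and -3.38 in control samples, a difference of -0.11. Kcnj8, the pore of the ATP-sensitive channel of pericytes and vascular muscle, had 1.11 and 0.94 in dark-reared samples versus 0.92 and 1.14 in control samples. Its difference was -0.01 (standard error 0.17). Of 11 tested rectifiers 4 were higher and 7 lower, and Kcnj1, Kcnj5 and Kcnj15 did not pass the filter.

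Tandem-pore-domain genes carry the leak current that general anaesthetics and acid alter. Kcnk3, an acid-sensitive leak channel gene, had -1.23 and -0.45 in dark-reared samples versus 0.02 and -0.80 in control samples. Dark-reared 2 lay between the controls, and the difference of -0.45 (standard error 0.42) was 0.35 within the shared slide. Of 8 tested members 5 were higher and 3 lower, with a median of 0.06, and Kcnk5 and Kcnk7 did not pass the filter.

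Calcium-activated channels of small conductance shape the pause after a spike. Kcnn2 had 1.22 and 1.23 in dark-reared samples versus 1.40 and 0.97 in control samples, and a difference of 0.04 (standard error 0.20). Kcnn3 had -3.84 and -3.70 in dark-reared samples versus -3.67 and -3.35 in control samples. Its groups did not overlap, at -0.27 (standard error 0.19, limma adjusted p = 1.00). Kcnn1 differed by -0.08, and Kcnn4 did not pass the filter. Among the sodium-activated genes, Kcnt2 had -1.60 and -1.14 in dark-reared samples versus -1.72 and -1.79 in control samples. On this probe both dark-reared samples lay above both controls, by 0.38 (standard error 0.21, limma adjusted p = 1.00), and by 0.65 on the shared slide. Its second probe differed by 0.34 with overlapping groups, at -3.28 and -2.39 in dark-reared samples versus -2.94 and -3.41 in control samples. Kcnt1 differed by 0.06 and was alike in sign on all 3 of its probes. Kcnu1, known from sperm, differed by -0.36.

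In the median member, samples of the same group lay further apart than the group means. Means of 2 samples vary less than single samples, so this order tends to arise without any group effect. The median absolute difference over the 59 members was 0.17 between the groups, 0.44 between dark-reared 1 and 2, and 0.43 between control 1 and 2. Over all genes tested the same medians were 0.11, 0.26 and 0.21. The group difference was larger than both differences within the groups in 2 members (3.39%), against 2286 of the 21432 genes. The direction also differed: in 45 of 59 members (76.3%) the sign of dark-reared 1 minus 2 was opposite to that of control 1 minus 2, where 58.0% of all genes were so. Across the 59 members, which share these 4 arrays and are not independent replicates, the 2 differences had a Pearson r of -0.33 and a Spearman rho of -0.55, against -0.16 and -0.21 across all 21432 genes.

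**Figure D3:**
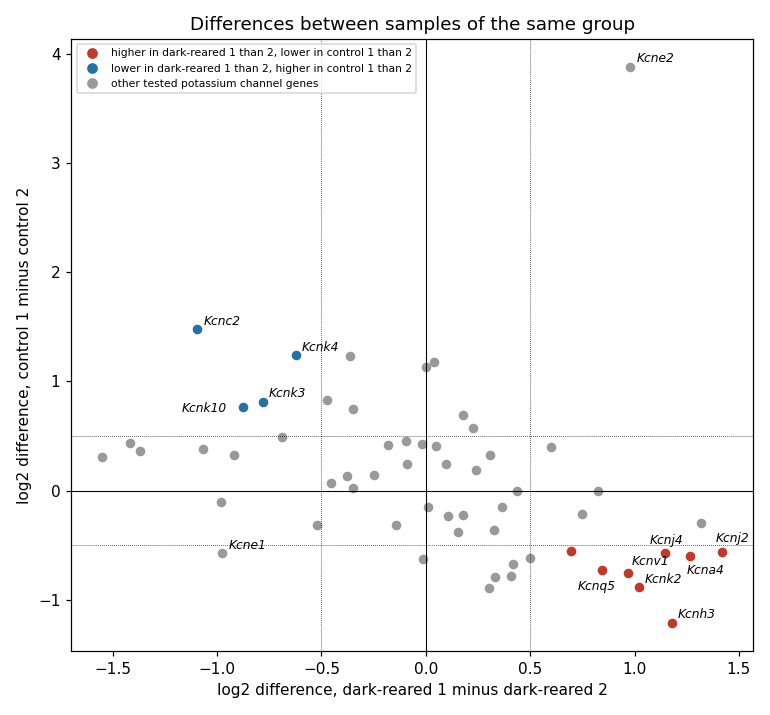
Each point is 1 of the 59 tested potassium channel genes, with the log2 difference between the 2 dark-reared samples on the horizontal axis and that between the 2 control samples on the vertical axis. Dotted lines mark 0.5. The 8 red points at lower right and the 4 blue ones at upper left pass 0.5 on both axes in opposite directions, and Kcne2 stands apart at 3.88 on the control axis.

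In 12 members (20.3%) both differences were at least 0.5 on the log2 scale and opposite in sign, against 6.64% of all genes. The limit of 0.5 was set after the values were seen, and the 12 were named by it. Kcnh1 lay just outside, with 0.499 between the dark-reared samples and -0.62 between the control samples. In 2 members, Kcne1 and Kcne2, both differences passed 0.5 in the same direction, 3.39% of members against 3.42% of all genes.

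The larger set was high in dark-reared 1 and control 2 and held 8 genes (13.6% of members, against 3.64% of all genes), among them Kcna4, Kcnh3, Kcnj2, Kcnj4, Kcnk2, Kcnq5 and Kcnv1. Kcnj4, a strong inward rectifier of forebrain neurons, had 4.40 and 3.25 in dark-reared samples versus 3.21 and 3.78 in control samples. Its second probe followed at -0.07 and -1.33 in dark-reared samples versus -1.38 and -0.53 in control samples. Kcnj2, another strong rectifier, had -2.99 and -4.41 in dark-reared samples versus -3.98 and -3.42 in control samples. Both give 1 high and 1 low sample in each group, and the difference of the group means of Kcnj2 was 0.000475. Kcnk2, a mechanically gated leak channel gene, had -0.62 and -1.64 in dark-reared samples versus -1.76 and -0.87 in control samples. Kcna4, an A-type channel gene of axons, had 1.59 and 0.32 in dark-reared samples versus 0.77 and 1.37 in control samples. Kcnq5, a further M current gene, had -0.44 and -1.29 in dark-reared samples versus -1.09 and -0.37 in control samples. Its second probe had -3.004 and -3.99 in dark-reared samples versus -4.04 and -3.98 in control samples, so that its difference of 0.51 was opposite in sign to the -0.14 of the brightest probe. Kcnv1, a modifier subunit gene, had -2.28 and -3.25 in dark-reared samples versus -3.69 and -2.94 in control samples, and its second probe kept that order within both groups.

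The smaller set was low in dark-reared 1 and control 2 and held 4 genes (6.78% of members, against 3% of all genes): Kcnc2, Kcnk3, Kcnk4 and Kcnk10. Kcnk4 had -1.80 and -1.18 in dark-reared samples versus -0.57 and -1.81 in control samples. Kcnk10, which like Kcnk4 and Kcnk2 belongs to the stretch-sensitive leak channels, had -3.89 and -3.01 in dark-reared samples versus -3.23 and -3.99 in control samples. Kcnk2 thus stood in the larger set and its relatives Kcnk4 and Kcnk10 in the smaller one.

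Striatum and thalamus markers are set beside the 2 sets here. The 8 genes deviated on average by 0.62 and -0.45 in dark-reared samples and by -0.45 and 0.28 in control samples, where striatum markers deviated by 0.84 and -0.80 in dark-reared samples and by -0.66 and 0.62 in control samples. The 4 genes deviated by -0.60 and 0.25 in dark-reared samples and by 0.71 and -0.36 in control samples, with thalamus markers at -1.09 and 0.27 in dark-reared samples and at 1.20 and -0.38 in control samples. Cortex and hippocampus markers had another order, lowest at -0.67 in control 2. Microglia markers, at 0.19 and -0.13 in dark-reared samples and -0.34 and 0.28 in control samples, had the signs of the 8 genes. So had endothelium and pericyte markers, at 0.16 and -0.17, then -0.05 and 0.07. Hypothalamus markers, at -2.15 and 0.60 in dark-reared samples and 1.73 and -0.18 in control samples, had the signs of the 4 genes. Astrocyte (-0.05, 0.04, 0.15, -0.13) and ependyma markers (-0.006, 0.35, 0.30, -0.65) had them too. The shared signs were thus not particular to striatum or thalamus markers. The signs within each group were fixed by the choice of the genes, and the part of the markers in the pattern was not tested.

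**Figure D4:**
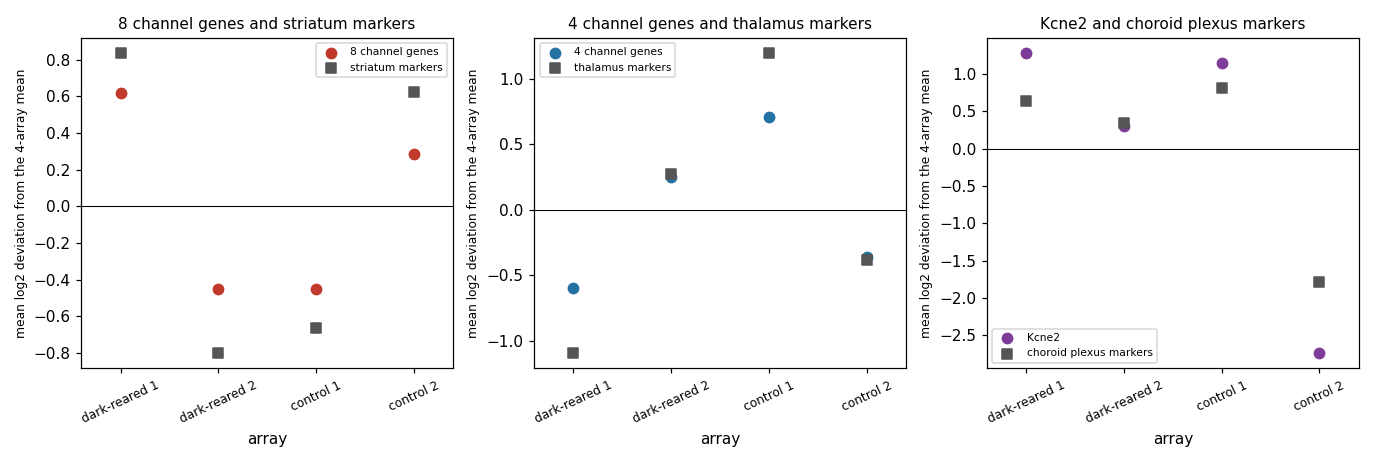
The 3 panels give mean log2 deviations from the 4-array mean on each array, dark-reared samples left of control samples. Circles are the 8 potassium channel genes high in dark-reared 1 and control 2, the 4 genes low there, and Kcne2, and squares are the striatum, thalamus and choroid plexus marker lists. Striatum markers are above 0 where the 8 genes are, and Kcne2 and the choroid plexus markers are both lowest in control 2, the markers at -1.79.

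Accessory proteins of these channels and the large-conductance calcium-activated channel were taken as a list of 25 genes, 23 of them with a probe and 18 tested. None passed the test (0 of 18), and none reached an unadjusted p under 0.05. Of the 18 genes 5 were higher and 13 lower in dark-reared samples, and their median difference was -0.15. Kcnab3 and Abcc8 (2 of 18) had groups without overlap, both lower, where 9.59% of all genes were lower without overlap. The median was -0.01 within the shared slide and -0.02 without dark-reared 1. Kcnab3, a cytoplasmic beta subunit of Kv1 channels, had -1.43 and -0.99 in dark-reared samples versus -0.47 and -0.97 in control samples, a difference of -0.49. Both dark-reared samples were below both controls, though the difference within the shared slide was -0.02. Dpp6, which brings Kv4 channels to the membrane, had 2.70 and 3.57 in dark-reared samples versus 3.88 and 3.27 in control samples, a difference of -0.44 that was 0.30 within the shared slide. Kcnip4, a calcium-binding partner of Kv4 channels, differed by -0.38, and by 0.38 within the shared slide. Cntnap1, a paranodal adhesion protein gene, and Kcnab2, another beta subunit gene, differed by -0.34 and -0.28. The lowest array was dark-reared 1 for 9 of the 18 genes, against 6077 of the 21432 genes.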

How the data were processed

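The deposited spot intensity values are, per the file headers, output of Feature Extraction 10.7.3.1 by Agilent (10.7 in the submitters' processing notes), used here as processed signals of 1 array that are background-subtracted and detrended, without scaling across arrays. A table of log2 values per probe, deposited by the authors as well, had a median of 6.84 on every array and correlated at 0.999 to 1.00 with log2 of the processed signal. Their normalization is not stated in the files or labels, and they served as an alternative.

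Outlier spots (79 to 103 per array) were left out, except where they were all of a probe's spots (at most 3 probes on an array), spots of a probe averaged, and each array's 75th percentile subtracted in log2. Accessions were named through the RefSeq table of GRCm38.p6 (26918 of 41174 probes). Coordinates are given for promoter windows only, on that build, since the array annotation refers to mm9. A probe was kept where both arrays of at least 1 group were well above background (28454 probes), and the brightest, by mean log2 over the 4 arrays, stood for each of 21432 genes (14335 with a symbol). The comparison used limma 3.58.1 under R 4.3.3, two-sided moderated tests from eBayes after lmFit, with Benjamini-Hochberg adjustment across the whole table and a threshold of 0.05. The script was first tested on simulated data. With 2 samples against 2, an exact permutation test cannot go below 0.333. The number of arrays limits the precision.

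Members, lists and tests were chosen with earlier results of these data known. Named members are those past the threshold, those at least 2-fold apart without overlap, the largest difference of each family, and a fixed set, with 5 genes of the accessory list. Others were named after their values were seen. A few members are not reported here by name, though they are in the counts. The marker lists covered thalamus, hypothalamus, cortex and hippocampus, striatum, fast-spiking interneurons, oligodendrocytes, astrocytes, choroid plexus, endothelium and pericytes, microglia, ependyma, pituitary, red blood cells and sex chromosomes. Slide 3 carried dark-reared 2 together with control 2, slide 2 carried dark-reared 1 and slide 1 carried control 1, so a fit with slide as a block gives the difference within slide 3 and no test. Alternatives were other scalings, normexp with an offset of 50 on median signals (local backgrounds called outliers replaced by the array's median), the deposited log2 values, other filters, the mean of a gene's probes, outlier spots kept, a trended robust fit, a replicate block and each array left out.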

Additional observations from a re-analysis of the deposited data

How the results depend on the processing

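No member passed the adjusted threshold under any of the settings with a test, and the lowest adjusted p of a member was 0.718, without dark-reared 1. The replicate block also gave 0 calls over all genes and 0 among members, and changed no call of a named gene. Samples that share a number are not said to be paired, and their deviations from the group means correlated at -0.16, so the pairing was also crossed after this was seen, which gave 0 calls as well (at an unadjusted p under 0.05, 2 of 59 members and 434 of 21432 genes). The members' median log2 difference ran from -0.12 to -0.05 and stayed below 0, and 10 to 14 members differed in opposite directions within the groups. Genes at least 2-fold apart without overlap numbered 258 in all, against 23 under normexp, 810 with no filter, 79 with the filter on all 4 arrays and 529 to 885 with 1 array left out. Among members that count was 0, and 1 to 3 with 1 array left out, where the lone sample's spread is taken from the other group. The cause of these shifts was not tested. Kcnj8 turned sign with median scaling (0.026), quantile normalization (0.011) and the deposited values (0.012). Within the shared slide the difference turned to 0.48 for Kcnc2, -0.12 for Kcnd2, 0.048 for Kcnd3, -0.89 for Kcnh3, 0.075 for Kcnj6, 0.35 for Kcnk3, 0.30 for Dpp6 and 0.38 for Kcnip4. With 1 array left out in turn, differences ran from -0.063 to 0.17 for Kcnd2, -0.32 to 0.20 for Kcnd3, -0.35 to 3.53 for Kcne2, -0.30 to 0.92 for Kcnh3, -0.28 to 0.065 for Kcnj6, -0.12 to 0.10 for Kcnj8, -0.17 to 0.25 for Kcnn2, -1.06 to 0.26 for Kcnq3, -0.60 to 0.038 for Kcnab2 and -0.84 to 0.083 for Kcnip4. Without a change of sign, single arrays moved Kcna1 between -0.73 and -0.13, Kcna2 between -0.57 and -0.24, Kcnc1 between -0.68 and -0.26, Kcnc2 between -1.55 and -0.07, Kcnj10 between -0.92 and -0.22, Kcnk3 between -0.86 and -0.04, Kcnn3 between -0.42 and -0.11, Kcns3 between -1.19 and -0.06, Kcnt2 between 0.16 and 0.61, Kcnab3 between -0.74 and -0.24, Cntnap1 between -0.65 and -0.04 and Dpp6 between -0.87 and -0.0082.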
